A study of Mus musculus with 4 samples.

Results

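The genes described here mark primitive endoderm and its derivative, visceral endoderm, and were read in cultured mouse embryonic stem cells. They are Gata4, Gata6, Sox17, Pdgfra, Cited1, Dab2, Cubn, Lrp2 and Apoe. All probe sets that the platform annotation pairs with only 1 of these 9 symbols were taken, which gave 18 of the 12488 probe sets on the array. The cells were E14tg2a, a mouse embryonic stem cell line grown without feeder cells. They were either controls (called control cells) or carried constitutively active Akt (called Akt cells; Akt12 in the titles), and total RNA was taken from each in medium holding 3000 U/ml of leukemia inhibitory factor (LIF) or after 4 days with no LIF. Each of the 4 groups is 1 array, and a difference between 2 arrays therefore has no replicate check. The sources used here do not say which Akt form, species or promoter was introduced, whether Akt12 is a single clone, or whether the controls carry an empty vector. If Akt12 is a clone, what sets that clone apart is part of every Akt against control value.

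Primitive endoderm is the layer of the blastocyst that separates from the epiblast. GATA6 is required for that step under FGF and ERK signalling, and SOX17 and GATA4 follow it, while the receptor tyrosine kinase PDGFRA appears on the surface of the same cells. Its descendant, the visceral endoderm, surrounds the embryo and takes up maternal proteins and lipids through the receptors cubilin (Cubn) and megalin (Lrp2), with DAB2 as the clathrin adaptor that binds megalin's tail. CITED1 is a transcriptional coactivator, and APOE is a lipoprotein component secreted by visceral endoderm, among other cells. LIF keeps mouse embryonic stem cells undifferentiated through STAT3, and Akt is a kinase downstream of phosphoinositide 3-kinase.

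Intensities below are quantile normalized, and 15.8, the 40th percentile of all values, served as the floor below which a value has no order. Of the 18 probe sets, 4 were at the floor on all 4 arrays: 1 each of Gata6, Sox17, Pdgfra and Apoe. The other 14 represented all 9 genes, and 6 of them were above the floor on each array. Control cells with LIF had 7 of the 18 above the floor, control cells without LIF had 12, and Akt cells had 13 with and 13 without LIF. Between 59.9% and 60% of all probe sets were above it on each array. An array measures the whole culture, so a smaller share of endoderm cells and less RNA per cell cannot be told apart.

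**Figure D1:**
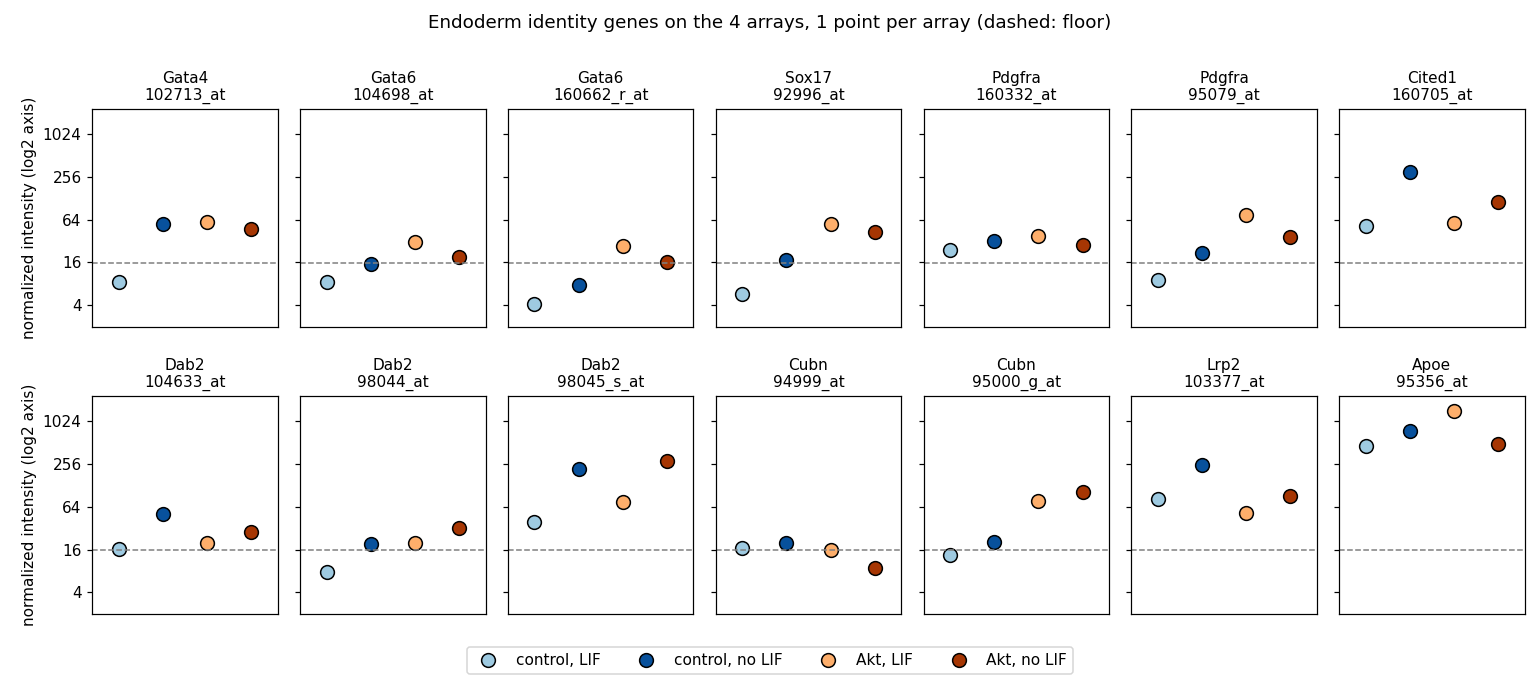
Normalized intensity (log2 axis) of the 14 probe sets above the floor on at least 1 array, 1 point per array and no error bar because each group is 1 array; the dashed line is the floor of 15.8. Points below the line have no order; with those tied, the point of control cells with LIF is alone the lowest in 10 of the 14 panels, and that of Akt cells with LIF is the highest in 7.

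With values under the floor taken as tied, control cells with LIF alone had the lowest intensity for 10 of these 14 probe sets, against 17.8% of the 8417 probe sets above the floor on at least 1 array. Control cells with LIF were the only array under the floor for Gata4, Sox17 and 1 probe set each of Pdgfra, Dab2 and Cubn. The count of 10 thus depends on where the floor was put. It also depends on the scaling. As deposited, Cited1 and a Dab2 probe set were lowest in Akt cells with LIF, at 47.4 and 16.6, against 65.1 and 19.4 in control cells with LIF. The 10 include more than 1 probe set of Dab2 and of Pdgfra, so they stand for fewer genes. For 3 of the 14 no array was lowest alone. Control cells with LIF were highest for 0 of the 14, against 21% of the 8417. Akt cells with LIF were highest for 7 probe sets (28.2% of all probe sets), which were those of Gata4, Gata6, Sox17, Pdgfra and Apoe. Both of these Gata6 probe sets were above the floor in Akt cells alone, so only an Akt array could be highest for them. Control cells without LIF were highest for 4 (30.3% of all) and Akt cells without LIF for 3 (20.6% of all). The transcription factor and Pdgfra probe sets thus had their highest point on another array than those of Cited1, Lrp2 and Dab2, and the results are given in that order. The members were chosen with earlier results of these data known, so the counts above describe them and are not a test.

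Gata4, which encodes a zinc finger factor of primitive endoderm, had an intensity of 8.5 in control cells kept in LIF and 55.2 after its withdrawal, against 59.0 and 47.7 in Akt cells. Only control cells with LIF were below the floor, and the other 3 arrays lay close together. Without LIF, Gata4 was at least 3.5-fold higher in control cells, while in Akt cells its log2 difference was -0.31. With LIF present it was at least 3.74-fold higher in Akt than in control cells, and without LIF the log2 difference between the lines was -0.21. The array of control cells with LIF enters both of the larger values, so they are not independent.

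Gata6, the factor that starts the primitive endoderm program, had 8.6 and 15.1 in control cells with and without LIF, both below the floor, and 30.6 and 19.2 in Akt cells with and without LIF. A second Gata6 probe set read 4.2 and 7.8 in control cells and 27.7 and 16 in Akt cells, in the same order of media. Both were above the floor in Akt cells alone, by at most 1.94 times the floor. The log2 differences on LIF withdrawal in Akt cells were -0.67 and -0.79. With LIF, Akt against control cells had bounds of at least 1.94-fold and at least 1.75-fold, short of the 2-fold used here to count a difference. This depended on the processing. Both probe sets reached 2-fold with the floor at the 20th percentile. The second did so with log2(intensity + 16), and the first when arrays were scaled to the hybridization controls.

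Sox17, an HMG box factor of endoderm, had 5.8 in control cells kept in LIF and 17.3 after its withdrawal, against 56.2 and 42.7 in Akt cells. Both Akt arrays were above both control arrays. Sox17 was at least 3.56-fold higher in Akt than control cells with LIF and 2.47-fold higher without it. LIF withdrawal gave a log2 difference of at least 0.13 in control cells, with 1 array at the floor, and of -0.40 in Akt cells.

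Pdgfra had 2 probe sets above the floor. The first read 9.2 and 21.6 in control cells with and without LIF, and the Akt cells gave 74.4 and 37.1. The second read 23.6, 32.4, 37.7 and 28.1 in the same order. In both, Akt cells with LIF were highest and control cells with LIF lowest, but the size of the difference depended on the probe set: at least 4.72-fold against 1.6-fold. On LIF withdrawal in Akt cells, Pdgfra was 2-fold lower by the first probe set and had a log2 difference of -0.42 by the second. In control cells the log2 differences were 0.45, a bound, and 0.46.

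Promoter sequence is shown for Cited1, Dab2, Lrp2 and Apoe. As described next, the first 3 were higher without LIF by 2-fold or more in control cells and higher in Akt cells too. Apoe had opposite signs in the lines. Pdgfra also had opposite signs, and its window is not printed. RefSeq windows of build GRCm38.p6, from 250 bases before to 50 after a transcript start, were found for 6 of the 9 genes in 11 windows, and the furthest upstream start of each gene is printed 5′ to 3′ in lower case. Capitals mark matches on either strand to the GATA hexamers (GATA with A or T before it and A or G after it), to the SOX letters ACAATG, or to the STAT letters TTCNNNGAA, none of which overlap here.
Cited1, chrX:102252132-102252431, minus strand: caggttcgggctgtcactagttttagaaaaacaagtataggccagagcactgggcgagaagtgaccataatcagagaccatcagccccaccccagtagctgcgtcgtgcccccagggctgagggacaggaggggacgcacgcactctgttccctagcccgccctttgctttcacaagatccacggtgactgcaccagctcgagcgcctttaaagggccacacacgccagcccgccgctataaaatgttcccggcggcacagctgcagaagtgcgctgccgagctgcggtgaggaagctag
Dab2, chr15:6299539-6299838, plus strand: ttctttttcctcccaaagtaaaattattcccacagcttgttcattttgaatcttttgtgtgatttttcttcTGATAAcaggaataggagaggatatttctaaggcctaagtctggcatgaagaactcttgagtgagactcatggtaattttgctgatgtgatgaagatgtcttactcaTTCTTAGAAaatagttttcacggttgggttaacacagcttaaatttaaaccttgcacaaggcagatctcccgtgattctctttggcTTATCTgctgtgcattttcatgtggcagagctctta
Lrp2, chr2:69585980-69586279, minus strand: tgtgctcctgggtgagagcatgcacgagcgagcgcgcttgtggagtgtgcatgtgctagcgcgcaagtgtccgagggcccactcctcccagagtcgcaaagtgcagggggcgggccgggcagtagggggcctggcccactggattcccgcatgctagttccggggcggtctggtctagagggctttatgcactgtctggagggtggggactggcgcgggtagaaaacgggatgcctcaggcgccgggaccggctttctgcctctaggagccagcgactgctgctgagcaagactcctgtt
Apoe, chr7:19699139-19699438, minus strand: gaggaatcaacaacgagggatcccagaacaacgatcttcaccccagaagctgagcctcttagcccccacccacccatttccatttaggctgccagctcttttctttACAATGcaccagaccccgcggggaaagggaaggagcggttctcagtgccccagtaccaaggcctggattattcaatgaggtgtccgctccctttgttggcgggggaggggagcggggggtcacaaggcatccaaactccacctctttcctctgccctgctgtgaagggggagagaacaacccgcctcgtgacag

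GATA letters stood in 2 of the 11 windows, 1 of Dab2 and 1 of Apoe, against 29.8% of 32841 promoter windows of the same length. The Dab2 window printed above holds 2 such matches and 1 match to the STAT letters, which stood in 2 of the 11 windows (8.3% of all), the other being that of Cubn. SOX letters stood in 1 window, of Apoe (12.6% of all). The windows of Cited1 and Lrp2 printed here hold none of the 3, and neither does that of Pdgfra. A match is only a run of letters and shows no binding.

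Cited1 had 52.9 in control cells kept in LIF and 300.1 after its withdrawal, against 56.7 and 113.9 in Akt cells. With LIF the lines had a log2 difference of 0.10, which was -0.46 as deposited with no scaling, and both lines were higher without it, by 5.68-fold in control and 2.01-fold in Akt cells. Without LIF, Cited1 was 2.64-fold lower in Akt cells than in control cells.

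Lrp2, the gene of the endocytic receptor megalin, had 83.4 and 247.9 in control cells with and without LIF, and 51.9 and 90.0 in Akt cells. It was 2.97-fold higher without LIF in control cells, and its log2 difference was 0.79 in Akt cells. Akt cells were lower than control cells in both media, with a log2 difference of -0.68 with LIF and 2.76-fold lower without LIF. Lrp2 and Sox17 therefore differed between the lines in opposite directions in both media.

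Dab2 was measured by 3 probe sets. The first, of the suffix _s_at that marks probes which may also match other transcripts, had 39.6 and 218.3 in control cells with and without LIF, and 75.4 and 282.6 in Akt cells. The second had 16.4, 50.1, 19.9 and 28.1 in that order, and the third 7.7, 19.4, 19.8 and 32.3. All 3 were higher without LIF than with it in each line. The folds on withdrawal in control cells were 5.5, 3.06 and at least 1.23, and in Akt cells they were 3.75, 1.42 and 1.63. The spread among them was wide beside the SD of 0.46 (log2) between probe sets of one gene in control cells and 0.38 in Akt cells. Between the lines the 3 probe sets disagreed in direction without LIF, at 0.37, -0.83 and 0.73 in log2.

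Cubn, whose product cubilin binds vitamin B12 with intrinsic factor and other ligands, had 13.5 in control cells kept in LIF and 20.8 after its withdrawal, against 78.5 and 102.8 in Akt cells, on its _g_at probe set. Both Akt arrays stood far above both control arrays, at least 4.97-fold with LIF and 4.94-fold without it. The other Cubn probe set gave 17.1, 19.8, 15.7 and 8.7, near or below the floor on all arrays. Its log2 differences between the lines went the other way, at -0.12 with LIF and -0.33 without it, both bounds. With the floor at the 20th percentile it was at least 2-fold lower in Akt cells without LIF. The suffix _g_at marks probes shared within a group of transcripts, and the level of Cubn in Akt cells thus rests on 1 of 2 probe sets. Cubn by its _g_at probe set was highest in Akt cells without LIF, while Lrp2 and the other Cubn probe set were highest in control cells without LIF.

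Apoe, whose promoter window holds the SOX letters printed above, had 452.8 and 735.5 in control cells with and without LIF, and 1436.1 and 483.8 in Akt cells. Akt cells with LIF stood apart from the other 3 arrays. Apoe was 3.17-fold higher in Akt than control cells with LIF, and 2.97-fold lower in Akt cells without LIF than with it. In control cells it had a log2 difference of 0.70 on withdrawal, and without LIF the lines differed by -0.60. The 2.97-fold and 3.17-fold values share the array of Akt cells with LIF.

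**Figure D2:**
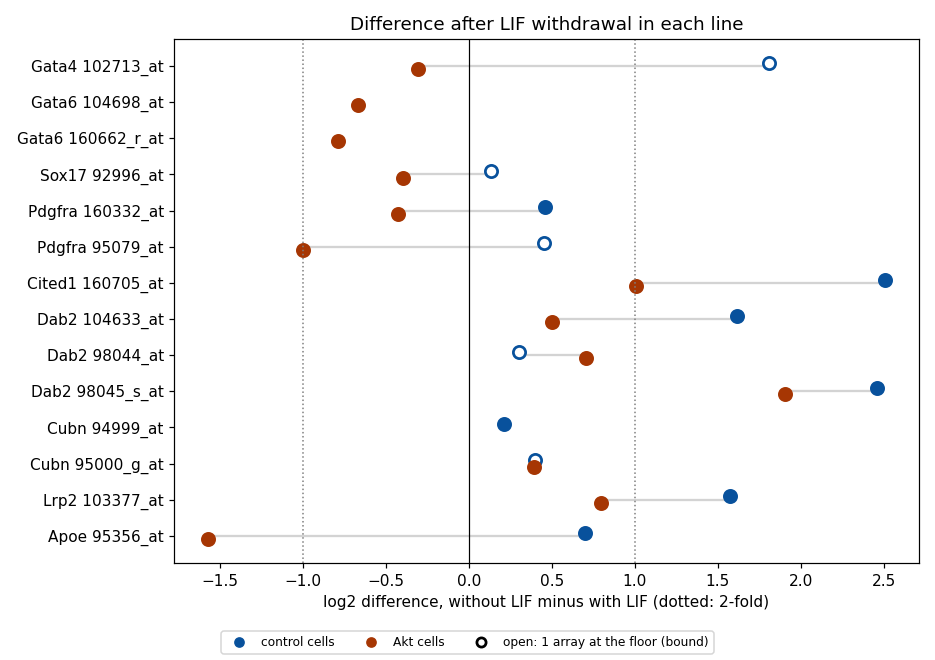
Log2 difference without LIF minus with LIF for each probe set, in control cells (blue) and Akt cells (brown); open points are bounds with 1 array at the floor, and dotted lines mark 2-fold. Cited1, Lrp2 and the Dab2 probe sets lie above 0 in both lines, while Gata4, Sox17, Pdgfra and Apoe lie above 0 in control cells and below 0 in Akt cells.

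After LIF withdrawal in control cells, 5 of the 18 probe sets were higher by 2-fold or more and 0 lower, with 6 at the floor on both arrays. The 5 belonged to Gata4, Cited1, Dab2 and Lrp2. Among all 7985 probe sets above the floor on at least 1 of those arrays, 7.19% were that much higher and 6.19% lower. In Akt cells 2 were higher (Cited1 and Dab2) and 2 lower (Pdgfra and Apoe), with 5 of the 18 at the floor on both, where 2.87% of 7918 probe sets were higher and 3.51% lower. Pdgfra was under 2-fold by the trimmed mean (-0.96), as deposited (-0.99), at the 60th percentile floor (-0.64) and with log2(intensity + 16) (-0.77). Cited1 was under 2-fold with log2(intensity + 16) (0.84) and by the hybridization controls (0.86). Because a probe set at the floor on 1 array could be counted only if the other array was high, these counts describe the members and are not a test.

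Between the lines, 4 of the 18 were at the floor on both arrays in each medium, and the shares of all probe sets below leave such probe sets out. With LIF, 5 of the 18 were higher by 2-fold or more in Akt cells (Gata4, Sox17, Pdgfra, Cubn and Apoe) and 0 lower, against 3.28% higher and 3.51% lower of 7930 probe sets. Without LIF, 2 were higher (Sox17 and Cubn) and 2 lower (Cited1 and Lrp2), against 5.59% higher and 7.85% lower of 7991. Sox17 without LIF was under 2-fold as deposited (0.96) and with log2(intensity + 16) (0.82), and had no difference with both arrays at the 60th percentile floor. The 4 comparisons share arrays in pairs. When the floor was the 60th percentile, the count higher in Akt cells with LIF was 1, which was Apoe. At that floor the count higher after withdrawal in control cells was 3, those of Cited1, Dab2 and Lrp2, and Gata4 was not among them.

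**Figure D3:**
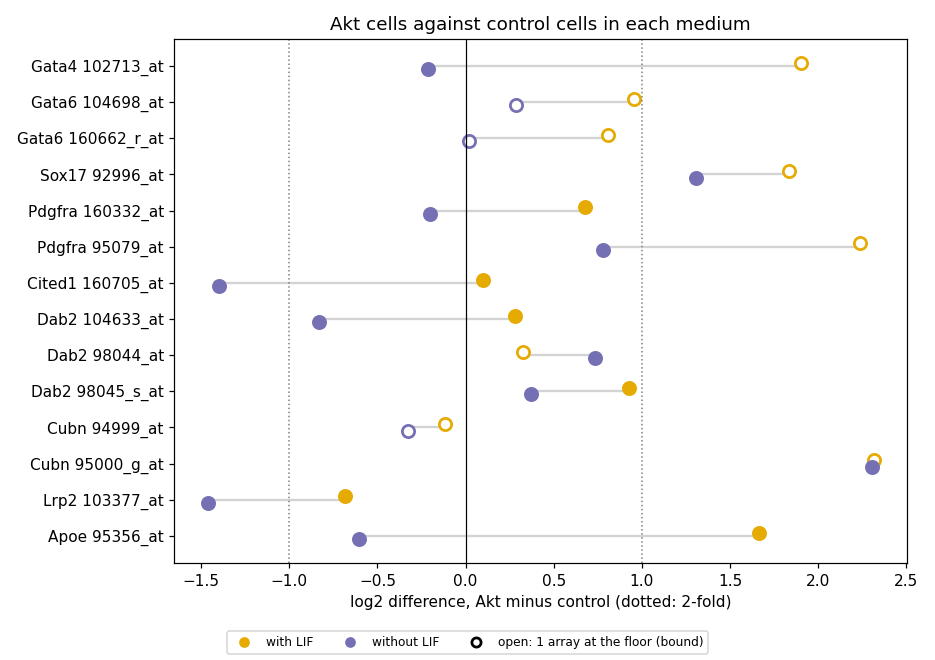
Log2 difference of Akt minus control cells for each probe set, with LIF (yellow) and without LIF (purple); open points are bounds with 1 array at the floor, and dotted lines mark 2-fold. At this scaling and floor Sox17 and the _g_at probe set of Cubn lie beyond 2-fold higher in both media, and Lrp2 lies below 0 in both.

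What both lines or both media shared was tested with limma, in a model with a term for the line and one for LIF over the 4 arrays and all 8417 probe sets. With 1 residual degree of freedom per probe set, a probe set's own error is how far the lines' responses depart from each other. limma pooled it with a prior of 5.56 degrees of freedom drawn from all probe sets tested, which has the larger weight. The pooled error says nothing of the spread between separate cultures, which the labels do not give. For LIF withdrawal limma called 0 of the 14 members tested and 0% of all probe sets at an adjusted p of 0.05; at an unadjusted p of 0.05 it took 4 members, all higher, and 648 probe sets (7.7%; 3.74% higher and 3.96% lower). Those 4 were Cited1 (log2 1.76, 95% interval 0.77 to 2.75, adjusted p = 0.352 by limma), Lrp2 (1.18, 0.39 to 1.97, adjusted p = 0.43) and 2 probe sets of Dab2. The _s_at probe set of Dab2 had 2.18 (1.44 to 2.93, adjusted p = 0.129 by limma), and the other 1.06 (0.19 to 1.93, adjusted p = 0.566). All 4 were higher without LIF in both lines.

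For Akt against control cells over both media, limma called 0 of the 14 members and 0.0594% of all probe sets. At an unadjusted p of 0.05 it took 4 members, 3 higher and 1 lower, and 692 probe sets (8.22%; 3.61% higher and 4.61% lower). Cubn on its _g_at probe set had a log2 difference of 2.31 (1.61 to 3.01, adjusted p = 0.082 by limma), Sox17 1.57 (0.83 to 2.31, adjusted p = 0.208) and Pdgfra 1.51 (0.53 to 2.49, adjusted p = 0.351). Lrp2 was on the other side at -1.07 (-1.86 to -0.28, adjusted p = 0.414 by limma). With no floor and log2(intensity + 16), limma called 191 probe sets for LIF, among them Cited1 (adjusted p = 0.00391) and Dab2 (adjusted p = 9.62e-05). In that setting it called 254 for the line, among them Cubn (adjusted p = 0.000316), Sox17 (adjusted p = 0.0121) and Pdgfra (adjusted p = 0.0323). Over all settings run, the adjusted p by limma of the 1 probe set called for each gene ran from 0.00391 to 1 for Cited1, from 9.62e-05 to 0.725 for Dab2, from 0.000316 to 0.606 for Cubn, from 0.0121 to 0.991 for Sox17 and from 0.0323 to 1 for Pdgfra. The other probe sets of Dab2, Cubn, Sox17 and Pdgfra were called in none of them. For the called probe sets of Cubn, Sox17 and Pdgfra, the value of control cells with LIF was under 15.8 and set to it. Their line differences above thus treat a bound as a measurement and followed the floor. With floors at the 20th and 60th percentile they were 2.42 and 0.91 for Cubn, 2.3 and 0.12 for Sox17, and 1.9 and 0.32 for Pdgfra.

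The genes whose profile was most like a member's were ranked by the Euclidean distance of log2 profiles, each centred on its mean over the 4 arrays, among 5027 genes above the floor on all of them. For Cited1 they were Oat, an ornithine aminotransferase (0.31), Sox3 (0.39) and Rflnb (0.42). For Lrp2 they were Tax1bp3 (0.17), Osbpl5 (0.17) and Errfi1, a feedback inhibitor of the EGF receptor (0.17). For Apoe they were Atp2a3 (0.38), Nipsnap2 (0.40) and Tmem43 (0.42). The closest to the _s_at probe set of Dab2 were farther off: Lxn (0.88), Myo1c (1.06) and Krt7 (1.08). For its second probe set they were Ms4a4d (0.11), Lgalsl (0.15) and H2-T18 (0.20). With 4 arrays many genes share a profile, and the ranking is a description.

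Other genes of the endoderm were taken from lists, each gene by its probe set with the highest mean. On withdrawal in control cells 7.39% of all genes were higher by 2-fold or more and 6.4% lower, and in Akt cells 3.01% and 3.65%, with medians of -0.03 and 0.01 in log2. A list of other endoderm regulators and signalling genes, not of primitive endoderm alone, had 17 on the array. Of these, 12 were measured in control cells, with a median of -0.17. At least 2-fold higher was 1 (the Wnt inhibitor Dkk1, at least 2.06-fold), and 1 was lower (the growth factor gene Fgf4, 5.16-fold). Fgf4 is also in the list of stem cell genes and is counted again there. In Akt cells 1 of 11 was higher, the Nodal pathway factor Foxh1 (2.69-fold), and the median was 0.17 (-0.01 if arrays were scaled to the hybridization controls). Sox7, a relative of Sox17 in the same layer, had 21.1 and 14.3 in control cells with and without LIF and 47 and 30.1 in Akt cells. It was highest in Akt cells with LIF, as was Sox17, and 2.22-fold above control cells there. Foxa2 and Hnf4a were at the floor on all arrays, and Foxa1 was above it only in control cells without LIF, at 21.4.

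The genes of parietal endoderm and basement membrane were on the array in 16 of 16 cases. Of 13 measured in control cells, 9 were at least 2-fold higher without LIF and 1 lower, with a median of 1.41, and in Akt cells 2 were higher and 0 lower, with a median of 0.14 (-0.04 by the hybridization controls). In control cells the keratins Krt19 at 5.4-fold, Krt8 at 4.91-fold and Krt18 at 4.75-fold and the activin antagonist Fst (4.25-fold) were highest above their level with LIF. The collagen gene Col4a1 was 3.12-fold higher, whereas Lama1, the laminin chain of early basement membranes, was at least 3.26-fold lower. The other laminin chain genes, Lamb1 and Lamc1, had log2 differences of 0.36 and 0.08 in control cells and 0.45 and -0.28 in Akt cells. In Akt cells those higher were Fst (3.08-fold) and Krt18 (2.46-fold). Keratins and collagens are made by many cell types. Of other genes in the list, Thbd (at most 2.5), Pth1r and Nid1 were at the floor on all arrays. Plat had log2 differences of 0.49 in control and 0.18 in Akt cells.

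The next list mixed carrier genes that visceral endoderm secretes, such as Afp, with genes of proteins not secreted, such as Cyp26a1 and Abca1. Its counts and medians cover both kinds and do not describe secreted carriers alone. Of the carriers, Afp, Ttr, Rbp4 and Apoa1 had at most 19.6. Among the 19 genes of the list on the array, 12 were at the floor in control cells with LIF. Of 8 measured in control cells, 2 were at least 2-fold higher without LIF, Cyp26a1 (at least 4.69-fold), which degrades retinoic acid, and Clu (3.19-fold). Also 2 were lower, the cholesterol exporter Abca1 (at least 4.09-fold, but -0.10 in log2 by its second probe set) and Apoc1 (2.28-fold), and the median was -0.23 (0.007 with the floor at the 60th percentile). In Akt cells Abca1 was lower (4.54-fold) among 10, with a median of -0.04 (0.09 as deposited). Apoc1, whose gene lies beside Apoe, had 125.6 and 55 in control cells with and without LIF and 188.4 and 114.5 in Akt cells. It was also highest in Akt cells with LIF.

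Of 15 lipoprotein receptor and clathrin adaptor genes measured in control cells, 2 were at least 2-fold higher without LIF, the receptor gene Lrp1 (2.15-fold) and the clathrin heavy chain Cltc (2.15-fold), with a median of 0.45. In Akt cells 1 of 14 was higher, the adaptor subunit Ap2b1 (2.27-fold), with a median of -0.07. Lrpap1, the chaperone of megalin, had 149.1 and 281.3 in control cells with and without LIF and 251.6 and 219.1 in Akt cells, which is a log2 difference of 0.92 in control and -0.20 in Akt cells. Lrp5 was above the floor only in control cells without LIF, at 19.6.

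**Figure D4:**
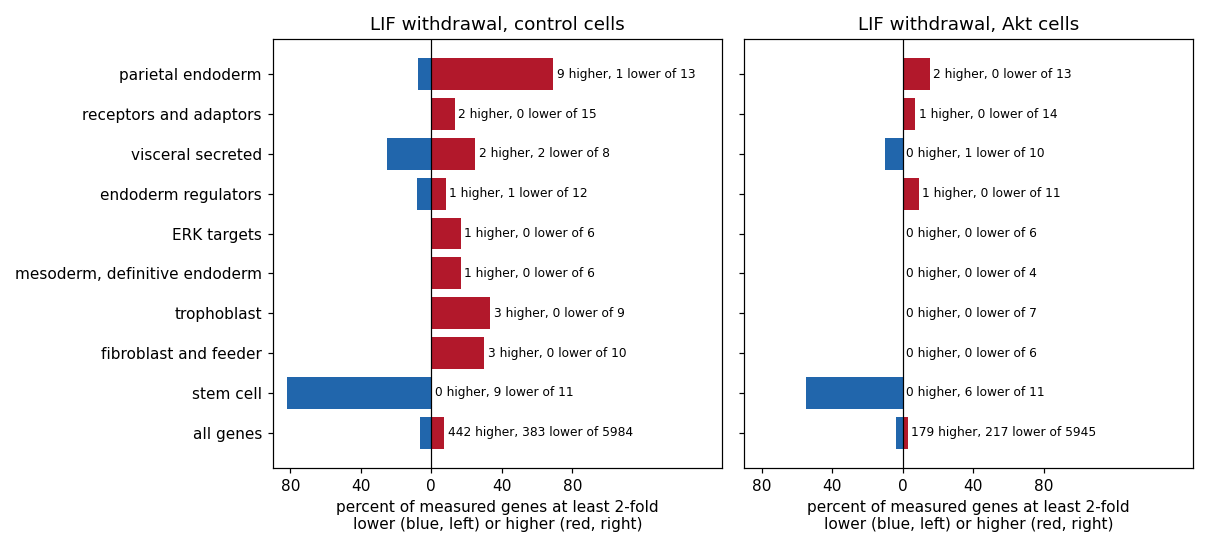
Percent of measured genes at least 2-fold higher (red) or lower (blue) without LIF than with it, in control cells (left) and Akt cells (right), for each gene list and for all genes, with the counts written beside the bars. The list of parietal endoderm and basement membrane genes, which includes keratins, has the longest red bar in control cells, 9 of 13. Stem cell genes have the longest blue bar in both lines.

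Markers of other cells were read beside these results. The stem cell markers Pou5f1, Nanog, Sox2 and Zfp42 were above the floor on all arrays, and 9 of 11 stem cell genes were at least 2-fold lower without LIF in control cells and 6 of 11 in Akt cells (medians -2.37 and -1.11). Among the most different were Nr0b1 (at least 20.9-fold lower in control and 5.59-fold in Akt cells), Fbxo15 (19.6-fold and 3.31-fold), Zfp42 (14.8-fold and 3.23-fold) and Klf4 (6.58-fold and 5.29-fold). Of the trophoblast markers, 3 of 9 were at least 2-fold higher without LIF in control cells (Tfap2a 5.11-fold, Krt7 4.49-fold, Gata3 at least 3.4-fold) and 0 of 7 in Akt cells, with medians of 0.59 and 0.18; Cdx2 was above the floor only in control cells without LIF, at 18, Elf5 on none, and Tfap2c had log2 differences of -0.57 in control and -0.34 in Akt cells. Of the 13 fibroblast and feeder markers, 10 were above the floor in control cells without LIF and 6 elsewhere. In control cells without LIF, Lum (15.9), Vim (19.2) and Col6a2 (19.6) were barely over the floor. The summed intensity of the 13 markers was 688 in control cells without LIF and between 334 and 400 on the other arrays. Of these, 3 of 10 were higher by 2-fold or more in control cells (Dcn 9.2-fold, Col3a1 at least 4.54-fold, Col1a1 2.39-fold; Col1a2 had a log2 difference of 0.48) and 0 of 6 in Akt cells (medians 0.32 and 0.07, the latter -0.02 by the hybridization controls). The ratio of the actin 3′ and 5′ probe sets, which depends on RNA integrity, was lowest in control cells without LIF (1.66) and highest in Akt cells with LIF (3.04), the arrays with the highest values of most members. The same ratio for Gapdh ran otherwise, at 3.03 and 3.19 in control cells before and after withdrawal and 3.05 and 2.46 in Akt cells. The part of these markers and of RNA quality in the members' values was not tested.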

How the data were processed

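The 4 groups of 1 array each were used, assigned from the titles, and every column belonged to 1 sample. The deposited values are intensities, 1 per probe set, with 1 decimal and none below 0; the authors' software and scaling are not given in the labels or files. Trimmed means (2%) ran from 80.3 to 121, a ratio of 1.51, so the values were taken as unscaled. With array controls left out, 12422 probe sets were quantile normalized (limma 3.58.1, R 4.3.3), which removes a shift common to most genes. Values under the 40th percentile (15.8) were set to it and log2 was taken. The 15 probe sets for bacterial transcripts read at most 12 as deposited. A difference of at least 1 in log2 was counted. A value at the floor on 1 array is a bound.

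The platform annotation paired 10833 probe sets with 1 symbol, of which 10817 were updated by gene identifier through a RefSeq table of GRCm38.p6, used for names, giving 8251 genes. Levels of different probe sets are not comparable. The additive limma model (lmFit, eBayes, two-sided, Benjamini-Hochberg over 8417 probe sets, 5.56 prior degrees of freedom) was also run on simulated data. Those had a common SD for all probe sets and no floor, so they do not test the model for values at the floor or for unequal variances. Other scalings, floors, a pseudocount and variance models were tried. Named genes are all members, the first 4 genes of each list where on the array, up to 4 per list and line at least 2-fold different on LIF withdrawal, and 3 nearest profiles per member. The members and lists were chosen with earlier results of these data known. Precision is limited by the number of arrays.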

Additional observations from a re-analysis of the deposited data

Results flagged for a closer look

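Members whose difference on LIF withdrawal went up in control cells and down in Akt cells are given here. The response of Akt cells minus that of control cells was -2.27 in log2 for Apoe, and -2.12 for Gata4, whose control value is a bound, so the difference is at least that large. For Pdgfra it was -1.46 by one probe set, again a bound, and -0.88 by the other, and for Sox17 -0.53, a bound. The difference was not tested, since 1 array per group leaves no error for it. In the case of Sox17 and the second Pdgfra probe set neither line's own difference reached 2-fold.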

How the results depend on the processing

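Of the 53 member values, 2 changed sign under an alternative: as deposited, with no scaling, Akt against control cells with LIF had -0.46 for Cited1 and -0.23 for a Dab2 probe set in place of 0.10 and 0.28. Those values carry a shift of the median of all probe sets of -0.51 in that comparison, -0.25 for withdrawal in control cells and -0.23 for the lines without LIF. Of the 318 alternative values, 275 moved by less than the SD between probe sets of one gene, 43 by more and 0 of those at least 2-fold different changed sign. Scaled to the 2% trimmed mean, 1 probe set was lower in Akt cells on withdrawal and limma called 1 member for the line, Cubn (adjusted p = 0.0494). As deposited, 1 was lower on withdrawal in Akt cells, 1 was lower in Akt cells with LIF, and 1 was higher in Akt cells without LIF. A floor at the 20th percentile gave 8 higher on withdrawal in control cells and 8 higher in Akt cells with LIF. A floor at the 60th percentile gave 3 and 1 for those, 1 lower on withdrawal in Akt cells and 1 higher in Akt cells without LIF. With log2(intensity + 16), 1 was higher and 1 lower on withdrawal in Akt cells, 1 was higher in Akt cells without LIF, and limma called 2 members for LIF and 3 for the line; the cause was not tested. Scaling to the hybridization controls, chosen after seeing the data, gave 1 higher on withdrawal in Akt cells and moved the share of higher among all 2-fold different probe sets from 53.7% to 43.4% in control and from 45% to 28.9% in Akt cells. As deposited, that share was 30.7% on withdrawal in control cells, and for the lines it went from 48.3% to 6.2% with LIF and from 41.6% to 17.5% without. Of all probe sets, limma called 0 for LIF and 5 for the line, 1 and 19 with a variance trend, 0 and 17 by the trimmed mean, 0 and 30 as deposited, 191 and 254 with log2(intensity + 16), and 0 and 0 with all probe sets tested or either other floor. Pairing by replicate was not possible because each group holds 1 array and no replicate numbers are shared. The limma model compares media within lines only through its line term. No array could be left out, since no residual degree of freedom would remain. Members under about 2 times the floor, such as Gata6, are limited by signal over background.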

Other observations

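Genes downstream of ERK, the kinase through which FGF directs cells to primitive endoderm, were measured in 6 cases. Dusp6, a phosphatase that ERK induces against itself, had 265.8 and 469.8 in control cells with and without LIF and 117.4 and 170.7 in Akt cells, and was 2.26-fold lower in Akt than control cells with LIF and 2.75-fold lower without it. Fos was 4.79-fold higher in Akt than control cells with LIF. In that comparison 2 of the 6 were at least 2-fold higher and 2 lower, against 208 higher and 216 lower of 5938 genes. Without LIF, 0 of the 6 were that much higher in Akt cells and 1 lower, against 353 higher and 488 lower of 6009 genes. On LIF withdrawal 1 of the 6 was at least 2-fold higher in control cells, Fos (4.13-fold), and 0 in Akt cells, with medians of 0.15 and 0.03; the first was -0.08 as deposited and the second -0.11 scaled to the hybridization controls.

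Markers of primitive streak, definitive endoderm and heart mesoderm, which share GATA4, SOX17 or PDGFRA with primitive endoderm, were mostly at the floor. Of 13 on the array, between 2 and 5 were above the floor on an array. Evx1 was at least 7.73-fold higher without LIF in control cells, where it read 121.9, and was at the floor on the other arrays; its second probe set had a log2 difference of 1. Eomes had 35 and 55.8 in control cells with and without LIF and 6 and 18.9 in Akt cells. Gsc was at the floor on all 4 arrays.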
